A study of Mus musculus with 8 samples.

Results

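The response of Pkd1 heterozygous mouse kidney epithelial cells to THZ1 was described across their expressed genes. The members were the genes with a mean of at least 1 FPKM over the 4 libraries of this line, which held for 10685 of the 18631 genes listed (57.4%). FPKM, the unit of the deposited values, is a fragment count scaled for transcript length and library depth. A further 3180 genes were listed at 0 in all 4 libraries, and 4766 were above 0 but under the limit. At the limit itself, Zfp418 and Dcdc2a lay just outside at a mean of 0.998 FPKM, and Zfp456 and Mreg just inside at 1.0025.

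The line is labelled Pkd1+/- and carries 1 working copy of Pkd1, which encodes polycystin-1 and whose mutation underlies most cases of dominantly inherited polycystic kidneys. Its cells received the solvent DMSO in 2 libraries, or THZ1 at 50 nM for 6 h in the other 2. A Pkd1 null line with the same 2 treatments gave 4 further libraries, which entered the fit and served as the comparison. Every group grew in the same medium, which held interferon-γ, thyroid hormone T3 and insulin. Each genotype is represented by 1 cell line, so an effect of genotype and any other feature of a line cannot be told apart. The labels do not state whether the 2 replicates of a group were separate cultures, and the p-values then measure only the spread between these libraries, which may be technical.

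THZ1 is a covalent inhibitor of CDK7, the kinase of the general transcription factor TFIIH. CDK7 phosphorylates the C-terminal tail of RNA polymerase II when transcription starts, activates other cyclin-dependent kinases, and acts with cyclin H (Ccnh) and Mat1 (Mnat1). THZ1 also binds the elongation kinases CDK12 and CDK13. An mRNA level in an oligo dT library is the balance of synthesis and decay, so short-lived transcripts respond to a block of synthesis sooner than stable ones.

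The deposited values summed to between 429233 and 448433 FPKM in the 4 heterozygous libraries, and 14007 to 14154 genes were above 0. The files give no read counts, so the depth is unknown here. Across genes, log2(FPKM + 1) values correlated at Pearson's r = 0.9972 between the DMSO replicates and 0.9982 between the THZ1 replicates. Genes are not independent replicates, and these values describe the libraries only. The epithelial markers Krt8 (327 FPKM), Krt7 (303), Krt18 (299), Cdh16 (183), Pax8 (86.8) and Pax2 (70.1) were high on average. Epcam (0.13), Cdh1 (0.16) and Cldn7 (0.40), which also define epithelium, were near 0. Of the proximal tubule markers Aqp1 had 209 FPKM and the other 5 were below 0.5. The summed proximal tubule markers were 186 to 197 FPKM under DMSO and 223 to 234 under THZ1. Nearly all of that sum is Aqp1, while Slc22a6 and Slc34a1 were listed at 0. Aqp1 rose by 0.26 on the log2 scale (0.20 to 0.30 over 20 alternative fits). The rise was called, as defined below, in 17 of those 20 fits. Each of the 6 collecting duct markers and 5 endothelial markers was below 1 FPKM, and the leukocyte gene Ptprc was at 0.25. Summed fibroblast markers were 15.6 to 16.7 FPKM under DMSO and 15.3 to 15.4 under THZ1, summed podocyte markers 3.15 to 3.23 and 2.81 to 2.97, and summed markers of the loop of Henle and distal tubule 2.2 to 2.25 and 1.62 to 1.83. In bulk RNA, fewer cells of a type and less RNA per cell cannot be told apart.

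DMSO replicate 1 stood apart along mRNA length. In the shortest decile of mRNA length (371 to 1308 nt in GENCODE M21, 1064 genes) its median deviation from the gene mean of the 4 libraries was -0.08 on the log2 scale, and in the longest decile (at least 6659 nt) it was 0.09. DMSO replicate 2 lay at -0.01 in both. The 2 THZ1 libraries lay at 0.05 and 0.04 in the shortest decile and at -0.04 and -0.05 in the longest. THZ1 against DMSO therefore had a median log2 fold change of 0.10 in the shortest decile and -0.09 in the longest, and of 0.06 and -0.04 without DMSO replicate 1. In the null line the same 2 deciles had medians of 0.01 and -0.08, but the 8 deciles between them lay lower, at -0.18 to -0.26, so that line showed no steady trend along length. For many of the groups of genes below, though not all, members called in all 8 of a set of harder settings are therefore also given. The settings left out each of the 4 heterozygous libraries in turn, used 3 other scalings between libraries, or corrected for mRNA length. Such members are called stable members here. Counts of calls without each library are given in 1 order throughout: DMSO replicate 1, DMSO replicate 2, THZ1 replicate 1 and THZ1 replicate 2. The part of the length gradient in the results was not tested beyond these settings. Along mRNA GC content the median deviation ran from 0.05 in the lowest decile to -0.07 in the highest in DMSO replicate 1. In DMSO replicate 2 it ran from -0.04 to 0.03, and in THZ1 replicate 2 from -0.01 to 0.04. THZ1 replicate 1 lay at 0.00 in both deciles. No correction for GC content was made.

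**Figure D1:**
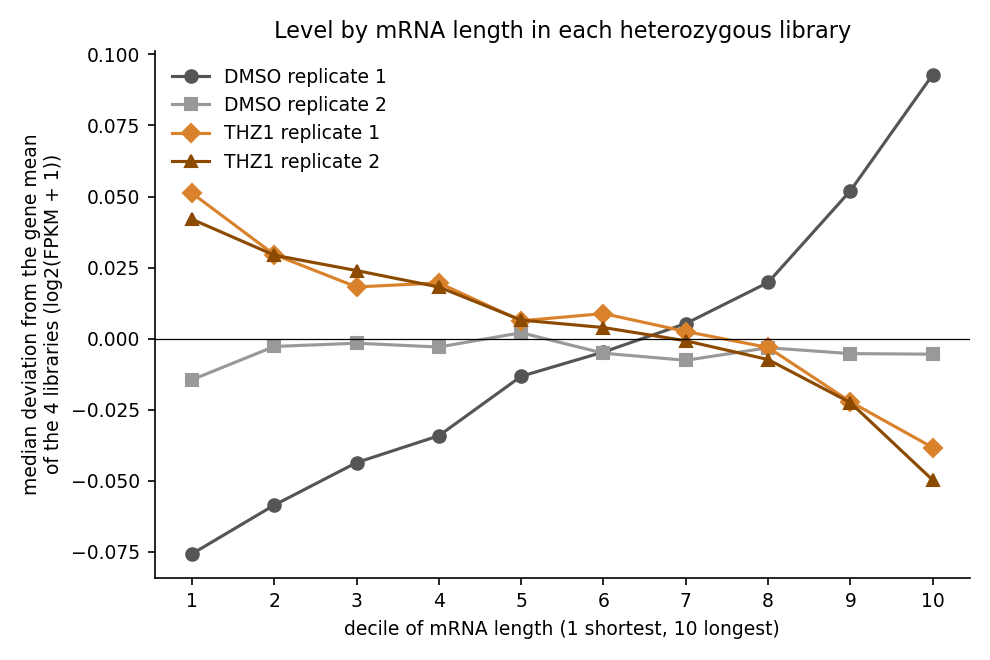
Median deviation of each heterozygous library from the gene mean of the 4 libraries, in log2(FPKM + 1) units, by decile of mRNA length. DMSO replicate 1 runs from -0.08 in the shortest decile to 0.09 in the longest, DMSO replicate 2 stays near 0, and the 2 THZ1 libraries run from 0.05 and 0.04 to -0.04 and -0.05.

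THZ1 changed many genes by small amounts in this line. Of 10685 genes, 2443 (22.9%) passed an adjusted p below 0.05 in limma with Benjamini-Hochberg adjustment and are said to be called. Of these, 1325 were higher under THZ1 (12.4% of genes tested) and 1118 were lower (10.5%). These 2 shares are the background for the counts of list members below. The median absolute log2 fold change over all genes was 0.11, on the log2(FPKM + 1) scale, which understates changes of genes with low values. Only 2 of the called genes rose and 4 fell by at least 2-fold on that scale, and 30 rose and 116 fell by more than 0.5. The split of calls depended on the scaling between libraries. Higher calls were 54.2% of all calls as deposited and 53.1% after median-of-ratios scaling, but 32.8% with upper-quartile scaling (438 higher, 896 lower) and 33.6% with scaling to library totals (766 higher, 1512 lower). Leaving out DMSO replicate 1 left 595 higher and 589 lower calls, leaving out THZ1 replicate 1 left 413 and 423, and leaving out THZ1 replicate 2 left 570 and 518. The stable members numbered 545, of which 249 rose and 296 fell.

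The 2 directions differed by level. Among the 4439 genes with a mean of at least 20 FPKM, 19.5% were called higher and 8.81% lower. Among the 1513 genes between 1 and 4 FPKM, 3.77% were called higher and 11.8% lower. The genes called higher had a median mRNA length of 2147 nt, those called lower 3697.5 nt and all genes 3135 nt. Among the stable members the medians were 1894 and 3439 nt.

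**Figure D2:**
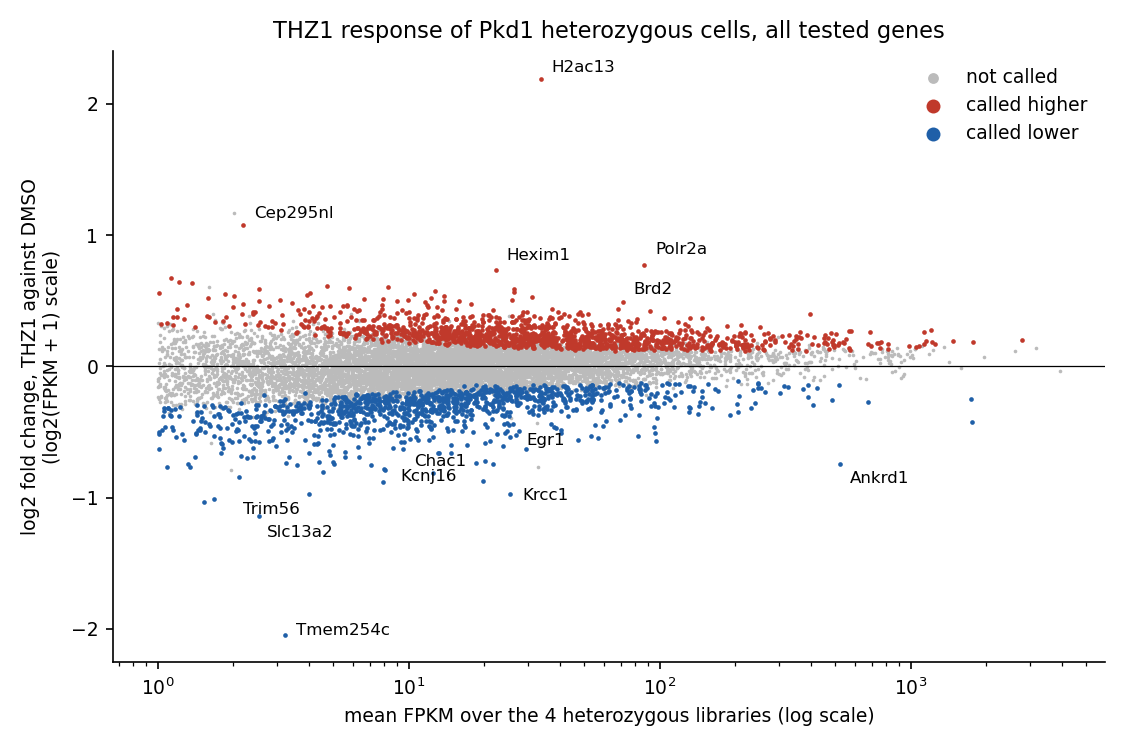
Log2 fold change of THZ1 against DMSO in heterozygous cells, on the log2(FPKM + 1) scale, against the mean FPKM of the 4 libraries on a log axis, 1 point per gene for all 10685 genes. The 1325 genes called higher are red and the 1118 called lower are blue. Among the genes named in the plot, Polr2a lies at 0.78 and Hexim1 at 0.73, and Krcc1, Kcnj16 and Ankrd1 at -0.97, -0.88 and -0.74.

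The promoters of 4 genes that changed are shown here, a pair that rose and a pair that fell, so that their start regions can be read side by side. Each is the 250 bases before the transcription start in the RefSeq table of GRCm38.p6, 5′ to 3′ on the gene's strand. In all 4 windows capitals mark every exact match, on either strand, to the same 5 motifs. These are the TATA box TATAAA, the GC box GGGCGG, the CCAAT box CCAAT, the letters TGACG and the TEAD motif GGAATG. Polr2a (chr11:69758634-69758883, minus strand), which encodes the catalytic subunit of RNA polymerase II, rose.
Polr2a: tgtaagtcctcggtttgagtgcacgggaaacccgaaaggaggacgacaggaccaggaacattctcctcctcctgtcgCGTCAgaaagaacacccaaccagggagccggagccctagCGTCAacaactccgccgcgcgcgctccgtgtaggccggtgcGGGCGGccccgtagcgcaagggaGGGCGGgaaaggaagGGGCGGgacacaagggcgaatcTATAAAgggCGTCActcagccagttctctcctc
Hexim1 (chr11:103116075-103116324, plus strand), which encodes an inhibitor of the elongation kinase P-TEFb, rose.
Hexim1: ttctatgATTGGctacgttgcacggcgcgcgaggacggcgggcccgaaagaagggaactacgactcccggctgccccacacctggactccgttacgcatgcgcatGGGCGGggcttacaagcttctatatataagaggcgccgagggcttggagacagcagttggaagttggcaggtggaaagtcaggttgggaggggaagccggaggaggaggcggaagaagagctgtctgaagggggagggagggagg
Chac1 (chr2:119350992-119351241, plus strand), a glutathione-degrading enzyme and stress-response gene, fell.
Chac1: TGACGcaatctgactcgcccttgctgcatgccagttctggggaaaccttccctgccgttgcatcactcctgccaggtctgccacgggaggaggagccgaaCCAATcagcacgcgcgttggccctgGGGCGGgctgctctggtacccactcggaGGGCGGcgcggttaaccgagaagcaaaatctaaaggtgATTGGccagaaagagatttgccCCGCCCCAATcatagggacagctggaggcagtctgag
Ankrd1 (chr19:36119845-36120094, minus strand), a target of the coactivators YAP and TAZ, fell.
Ankrd1: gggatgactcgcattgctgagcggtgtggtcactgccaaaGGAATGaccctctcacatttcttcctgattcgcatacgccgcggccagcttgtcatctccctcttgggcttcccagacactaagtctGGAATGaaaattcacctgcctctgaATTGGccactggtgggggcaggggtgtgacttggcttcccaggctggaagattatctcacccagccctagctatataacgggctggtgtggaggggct

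The Polr2a window holds a TATA box that begins 33 bases before the start, 3 GC boxes and 3 matches to TGACG. The Hexim1 window holds 1 GC box and 1 CCAAT box. The Chac1 window holds 3 GC boxes, 3 CCAAT boxes and 1 match to TGACG, and a GC box and a CCAAT box share bases near its start. The Ankrd1 window holds 2 TEAD motifs, beginning 210 and 123 bases before the start, and 1 CCAAT box. GC boxes and CCAAT boxes were thus found in windows of both directions. The TATA search took only the exact letters TATAAA, so the letters TATATAA in the Hexim1 and Ankrd1 windows were not marked. Of the 8664 tested genes with a promoter in the table, 5.62% hold a TATA box in the same 250 bases, 62.3% a GC box, 37.6% a CCAAT box, 28.6% the letters TGACG and 10.1% a TEAD motif. Among promoters of genes called higher and lower the shares were 66.5% and 60.4% for the GC box, 6.01% and 5.14% for the TATA box and 9.34% and 11.7% for the TEAD motif. The AP-1 motif TGANTCA was in 4.26% of promoters of genes called higher, 5.59% of those called lower and 4.01% of all. The shares are descriptions, and a match does not show a bound site.

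Pkd1 itself (chr17:24548689-24596514 in GRCm38) had 4.58 and 5.30 FPKM under DMSO and 3.71 and 4.20 under THZ1 in heterozygous cells. In the null line its 4 libraries were between 1.21 and 1.69 FPKM, so every heterozygous library was above every null library. The THZ1 values lay below the DMSO values without overlap, but the difference of -0.26 ± 0.10 (SE) was not called (limma adjusted p = 0.0799, range over 19 alternatives 0.0491 to 0.372). Pkd2 (chr5:104453982-104505819), the gene of the partner channel polycystin-2, had 43.17 and 39.40 FPKM under DMSO and 32.62 and 32.54 under THZ1. It fell by 0.33 ± 0.05 (SE) on the log2 scale (limma adjusted p = 0.00108).

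The target of the drug and its partners stayed near their DMSO level. Cdk7 had 7.36 and 6.42 FPKM under DMSO and 6.34 and 6.27 under THZ1, a difference of -0.11 that was not called (limma adjusted p = 0.346). Ccnh, at 6.14 and 6.74 against 6.16 and 6.44 FPKM, and Mnat1, at 19.17 and 19.79 against 18.06 and 18.98, had differences of -0.03 and -0.07 and were not called either. The related elongation kinases gave different values. Cdk12, which phosphorylates the polymerase tail during elongation, had 12.36 and 10.26 FPKM under DMSO and 16.09 and 16.65 under THZ1. It rose by 0.50 ± 0.08 (SE; limma adjusted p = 0.00153). Cdk13, at 10.07 and 9.43 against 10.83 and 10.78, had 0.14 ± 0.06 (limma adjusted p = 0.142). Its call depended on the mRNA length correction, with which it was 0.24 (limma adjusted p = 0.0168, range over 20 alternatives 0.0168 to 0.47). Cyclin L2 (Ccnl2), a cyclin of the splicing-linked CDK11, rose from 26.95 and 26.40 to 33.14 and 33.62 FPKM (0.31). Of the 15 transcription kinases and cyclins, 3 rose and 0 fell.

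RNA polymerase II and its initiation and elongation factors held several large increases. Polr2a had 64.86 and 62.99 FPKM under DMSO and 110.32 and 110.08 under THZ1. The 2 THZ1 values lay far above both DMSO values, a rise of 72.4% in FPKM and of 0.78 ± 0.05 (SE) on the log2 scale (limma adjusted p = 4e-06). Hexim1, which holds P-TEFb inactive together with the 7SK RNA, had 15.73 and 17.33 FPKM against 28.19 and 27.99, a rise of 69.9% and of 0.73 ± 0.06 (SE; limma adjusted p = 1.2e-05). Brd2, a bromodomain protein that reads acetylated histones, rose from 58.19 and 59.90 to 80.95 and 86.01 FPKM (0.49 ± 0.05). In each of these genes both THZ1 libraries were above both DMSO libraries. Here and below, such lack of overlap describes the values and adds no support, since the genes were chosen as called. Pkd1, Cdk7, Mnat1 and Cdk13 also had no overlap and were not called.

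Of 19 RNA polymerase II genes, a list that holds the assembly gene Gpn3 besides subunit genes, 9 rose, 1 fell and 9 were not called. Their median log2 fold change was 0.16, against 0.01 over all genes. Besides Polr2a, the stable increases were in the small subunit genes Polr2j (92.40 and 99.62 against 117.98 and 113.24 FPKM, 0.27) and Polr2l (0.25), and in Gpn3, a GTPase needed for assembly and nuclear import of the polymerase (24.51 and 25.95 against 33.71 and 31.24 FPKM, 0.35). Polr2j and Polr2l have short mRNAs, and with the length correction together with removal of DMSO replicate 1 they were no longer called (limma adjusted p = 0.162 and 0.0566, the highest of their 20 alternatives). Without DMSO replicate 1, DMSO replicate 2, THZ1 replicate 1 and THZ1 replicate 2 the higher calls of this list numbered 6, 8, 5 and 5.

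Of 29 general initiation factors (TFIIH, TFIID and others), 10 rose (34.5%, against 12.4% of all genes), 1 fell and the median was 0.12. Taf13, a TFIID subunit, rose from 21.49 and 20.37 to 30.22 and 32.62 FPKM (0.56 ± 0.06 SE, limma adjusted p = 0.000117). Gtf2b, which encodes TFIIB and places the polymerase at the start site, rose from 41.52 and 40.08 to 55.50 and 52.83 (0.40). Gtf2h5, the smallest TFIIH subunit gene, rose from 34.74 and 32.27 to 46.92 and 43.12 (0.42). The DMSO and THZ1 values of these 3 genes did not overlap, which their calls make likely. Of 27 pause release and elongation genes 9 rose (33.3%) and 2 fell (median 0.12). The stable members of that list were Hexim1 and Brd2, while Supt5 (0.20) and Nelfcd (0.25), subunits of the pausing factors DSIF and NELF, were called only in some of those settings. Of 29 Mediator subunits 6 rose (20.7%) and 1 fell, with a median of 0.04 that was 0.00 under library total scaling. Med25 (0.39) and Med10 (0.26) were stable, but Med10 was not called with the length correction and without DMSO replicate 1 (limma adjusted p = 0.165, the highest of 20 alternatives). Without the libraries in the order above, higher calls numbered 8, 6, 3 and 5 for initiation factors, 4, 7, 4 and 4 for elongation genes, and 3, 6, 3 and 2 for Mediator.

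The 12 largest increases at a mean of at least 4 FPKM began with H2ac13, a replication-dependent histone H2A gene. It had 25.91 and 4.03 FPKM under DMSO and 54.02 and 50.50 under THZ1. The THZ1 values were above both DMSO values, but these differed far more from each other than the THZ1 values did. The fold change of 2.19 became 3.40 without DMSO replicate 1 and 0.98 without DMSO replicate 2 (limma adjusted p = 0.00898, range over 20 alternatives 1.71e-08 to 0.0888). H2ac13 is uncertain, since other H2A genes are nearly identical to it and reads may be split among them. After it came Polr2a, Hexim1 and the homeobox gene Hhex, which had 3.54 and 3.51 FPKM under DMSO and 5.91 in each THZ1 library (0.61 ± 0.09 SE). Fdxr, the mitochondrial ferredoxin reductase and a known p53 target, had 6.45 and 6.27 against 10.05 and 10.31 (0.60 ± 0.07 SE). The others were Tmem243 (0.60), the membrane-shaping adaptor Baiap2 (0.59), Pik3r3, a regulatory subunit of PI3-kinase (0.58), Taf13 (0.56), Hacd1, an enzyme of very long chain fatty acid synthesis (0.56), Hoxb13 (0.55) and the ubiquitin ligase Rnf19b (0.54). All 12 were stable members. Tmem243 overlaps Dmtf1, and the handling of strand is not given in the sources used here, so reads from overlapping genes cannot be told apart. The same limit holds for other named genes that overlap a neighbour, such as Pkd1 with Tsc2, Cdk7 with Ccdc125, Mnat1 with Trmt5, Nelfcd with Ctsz, Atf5 with Nup62, Ift122 with Mbd4, Slc33a1 with Gmps, Eef2kmt with Alg1, Zfp397 with Zscan30, Tmem120b with Rhof and Tmem216 with Cpsf7.

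At a mean of 1 to 4 FPKM the 5 largest increases were in Cep295nl (0.99 and 1.11 against 3.16 and 3.52 FPKM, 1.08), the small GTPase gene Rac3 (0.72 and 0.56 against 1.59 and 1.64, 0.67), the neurotrophic factor gene Nrtn (0.71 and 0.75 against 1.73 and 1.68, 0.64), Ints6l (0.84 and 0.86 against 1.85 and 1.91, 0.64) and Ankrd37 (1.77 and 1.86 against 2.83 and 3.68, 0.59). Lack of overlap between the groups was a condition for naming these 5. Cep295nl overlaps Timp2, whose reads could be counted with it. With a pseudocount of 0.1 in place of 1 the log2 fold changes of Rac3, Nrtn and Ints6l were 1.22, 1.12 and 1.06. Ankrd37, a hypoxia-responsive gene, was not called with the length correction and without DMSO replicate 1 (limma adjusted p = 0.0501, the highest of 19 alternatives).

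The largest decrease above 4 FPKM was in Krcc1 (chr6:71271677-71286825 in GRCm38), a gene of little known function, with 33.74 and 33.90 FPKM under DMSO and 17.20 and 16.27 under THZ1. Both THZ1 values were close to 50% of the DMSO level, a log2 fold change of -0.97 ± 0.07 (SE; limma adjusted p = 8e-06). Trim56, a ubiquitin ligase of innate immunity, had 6.27 and 5.05 FPKM against 2.46 and 2.32 (-0.97 ± 0.10). Kcnj16 (chr11:110968033-111027968), which encodes the inward rectifier potassium channel Kir5.1 of tubule epithelium, had 26.50 and 25.44 against 13.37 and 14.01 (-0.88 ± 0.06). Ankrd1 was the most abundant of these genes, with 650.98 and 654.18 FPKM under DMSO and 376.92 and 403.18 under THZ1 (-0.74 ± 0.05 SE, limma adjusted p = 4e-06). These 4, like the other largest changes, were named only if their DMSO and THZ1 values did not overlap.

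The remaining 8 of the 12 decreases spanned several functions. They were Ankrd49 (-0.88), Ccdc9b (-0.81), Zbed6 (-0.79), Rfx5 (-0.75), Nudt18 (-0.75), the keratin gene Krt80 (-0.74), the Ras effector Rin1 (-0.74) and the cilia-associated Cfap300 (-0.73). Rfx5 binds the promoters of MHC class II genes, and had 8.93 and 9.27 FPKM against 4.97 and 5.02. Nudt18 cleans oxidised nucleotides from the nucleotide pool, and had 6.33 and 6.83 against 3.35 and 3.69. Zbed6 is not stable. It lies within Zc3h11a, its DMSO replicates had 13.15 and 7.98 FPKM, and without DMSO replicate 1 it was -0.46 (limma adjusted p = 0.071, range over 20 alternatives 4.31e-06 to 0.0715).

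At 1 to 4 FPKM the clearest decrease was in Slc13a2, the citrate and succinate carrier of the proximal tubule, from 3.80 and 3.92 to 1.16 and 1.24 FPKM (-1.14 ± 0.09 SE, limma adjusted p = 1.2e-05). Zswim9, which overlaps Lig1, fell from 3.02 and 2.98 to 1.25 and 1.22 (-0.84). The other 3 named at this level were not stable. Tmem254c had 1.70 and 10.40 FPKM under DMSO and 0.00 and 0.81 under THZ1, and its call (limma adjusted p = 0.0359, alternatives 1.78e-05 to 0.285) was lost without DMSO replicate 2, THZ1 replicate 1 or THZ1 replicate 2 (limma adjusted p = 0.285, 0.188 and 0.051). Zfp973, at 3.03 and 1.60 against 1.51 and 0.00, lost its call without DMSO replicate 1 or THZ1 replicate 2 (limma adjusted p = 0.26 and 0.325, alternatives 0.000131 to 0.325). Oaz3, at 1.06 and 2.26 against 0.64 and 0.41, overlaps Tdrkh and lost its call without THZ1 replicate 2 (limma adjusted p = 0.0584, alternatives 0.000105 to 0.0584).

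**Figure D3:**
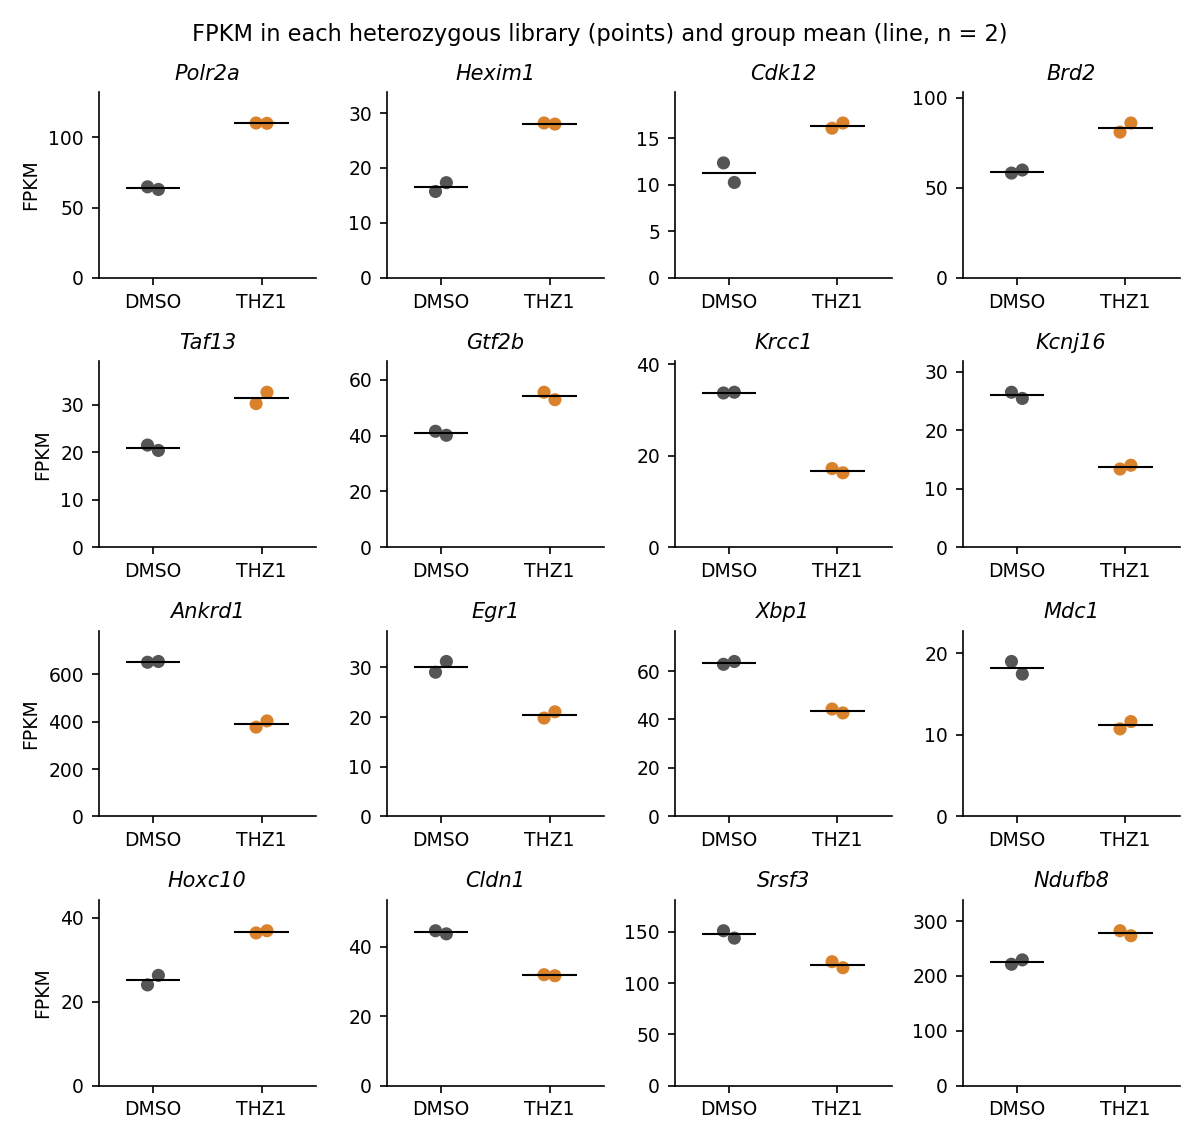
FPKM of 16 genes in each of the 4 heterozygous libraries, on linear axes that start at 0, with DMSO in grey, THZ1 in orange and the group mean of 2 libraries as a line. In each panel the 2 THZ1 points lie on 1 side of both DMSO points; Polr2a goes from 64.86 and 62.99 to 110.32 and 110.08 and Krcc1 from 33.74 and 33.90 to 17.20 and 16.27.

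Immediate early genes, whose transcripts are induced fast by growth signals and decay fast, moved mainly down. Of 23 tested, 10 fell (43.5%, against 10.5% of all genes) and 1 rose (median -0.14), and 7 of the decreases were stable. Egr1, a zinc finger factor induced by serum and ERK signalling, had 29.02 and 31.18 FPKM under DMSO and 19.79 and 21.05 under THZ1 (-0.54 ± 0.06 SE, limma adjusted p = 0.000127). Both THZ1 libraries were below either DMSO library. Jun, an AP-1 subunit, had 19.24 and 19.86 against 13.22 and 14.60 (-0.46), and Fosl2, another, 28.02 and 27.38 against 20.78 and 22.35 (-0.35). The antiproliferative gene Btg2 (-0.38) and the Krüppel-like factor gene Klf6 (-0.37) also fell. The exception was Zfp36, which encodes the mRNA-destabilising protein tristetraprolin and rose by 0.47. That increase was not stable, with log2 fold changes of 0.32 to 0.61 over 20 alternatives. Myc had 35.82 and 36.68 FPKM against 30.55 and 31.87, a fall of -0.21 ± 0.05 (SE; limma adjusted p = 0.00778) that was not called without THZ1 replicate 1 (limma adjusted p = 0.0847, alternatives 0.00253 to 0.0847). Lower calls in the list numbered 11, 9, 7 and 9 without DMSO replicate 1, DMSO replicate 2, THZ1 replicate 1 and THZ1 replicate 2.

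Targets of YAP, TAZ and TEAD, which report cell spreading and Hippo signalling, gave 8 decreases and 0 increases among 23 (median -0.12). The share that fell was 34.8%, against 10.5% of all genes. After Ankrd1, the coagulation initiator F3 fell from 114.24 and 118.02 to 76.02 and 79.85 FPKM (-0.57 ± 0.04 SE, limma adjusted p = 1e-05). Fstl1, a secreted glycoprotein, fell from 217.69 and 212.91 to 166.12 and 166.90 (-0.37), and Ccn1, a matricellular protein, from 437.11 and 466.46 to 353.28 and 384.56 (-0.29). These 4 were the stable members, and their groups did not overlap. Ccn1 and Ccn2 also belong to the immediate early list. Without the 4 libraries in the order above the lower calls were 5, 8, 4 and 4.

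Among 27 NF-kB targets and chemokines, 12 fell (44.4%, against 10.5% of all genes) and 2 rose (median -0.11). Ptgs2, the inducible cyclooxygenase, had 8.18 and 7.40 FPKM under DMSO and 4.99 and 4.49 under THZ1 (-0.61). The cytokine gene Lif had 19.21 and 19.34 against 12.47 and 14.37 (-0.49), and the monocyte chemokine gene Ccl2 had 116.57 and 108.43 against 77.32 and 80.52 (-0.51 ± 0.08 SE, limma adjusted p = 0.0014). The 2 increases were both in genes that help leukocytes adhere. Icam1 rose from 4.67 and 4.56 to 7.18 and 6.32 FPKM (0.46), and the membrane-bound chemokine gene Cx3cl1 from 22.92 and 25.55 to 33.64 and 31.61 (0.42). The lower calls were 6, 6, 5 and 7 without the 4 libraries in the order above. The summed leukocyte markers were 2.93 to 3.16 FPKM under DMSO and 2.92 to 3.36 under THZ1, and Adgre1 and Cd3e were listed at 0.00.

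Of 30 genes of the integrated stress and unfolded protein responses, 5 fell (16.7%, against 10.5% of all genes) and 2 rose (6.67%, against 12.4%). Chac1 fell from 24.30 and 26.29 to 14.79 and 15.02 FPKM (-0.72 ± 0.09 SE, limma adjusted p = 0.000207). Xbp1, the transcription factor of the unfolded protein response, fell from 62.77 and 63.94 to 44.31 and 42.70 (-0.53). Atf4, the main factor of the integrated stress response, fell from 255.86 and 270.89 to 219.05 and 213.54 (-0.28). Its relative Atf5 rose from 28.10 and 31.09 to 35.32 and 38.15 (0.30), but was not called with the length correction and without DMSO replicate 1 (limma adjusted p = 0.0874, the highest of 20 alternatives). The median of the list was -0.02, and 0.00 without THZ1 replicate 1. Lower calls numbered 5, 4, 4 and 3 in the order above.

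Of 21 heat shock genes 5 rose and 2 fell (23.8% and 9.52%, against 12.4% and 10.5% of all genes), and 14 were not called. The inducible Hspa1b rose from 7.34 and 8.75 to 11.03 and 12.70 FPKM (0.51 ± 0.09 SE), with the co-chaperones Bag3 (0.30) and Dnajb1 (0.28), while the constitutive Hspa8 fell from 1845.34 and 1932.42 to 1581.90 and 1599.46 (-0.25). Hspa1b shares most of its sequence with a neighbouring copy and is uncertain for that reason. Of 25 NRF2 targets and glutathione genes, which protect against oxidants, 12 rose and 2 fell (median 0.14). Gclc, the rate-limiting enzyme of glutathione synthesis, rose from 52.36 and 50.63 to 63.22 and 61.42 (0.27). Txn1 and Gpx4 each rose by 0.23, but both have short mRNAs and were not called with the length correction and without DMSO replicate 1 (limma adjusted p = 0.0881 and 0.0747, the highest of 20 alternatives each). Srxn1, which repairs peroxiredoxins, moved the other way, from 70.17 and 70.02 to 51.15 and 53.67 (-0.41). Higher calls of this list numbered 7, 11, 6 and 7 in the order above.

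The DNA damage response list had 0 higher and 7 lower of 34 (20.6% lower, against 10.5% of all genes), with a median of -0.07. Mdc1, the adaptor that binds phosphorylated H2AX at breaks, fell from 19.01 and 17.46 to 10.74 and 11.64 FPKM (-0.66 ± 0.07 SE, limma adjusted p = 0.000178). Brca2, a gene of homologous recombination, fell from 5.71 and 4.92 to 3.44 and 3.30 (-0.53). These were the 2 stable members of the list, both with THZ1 values below every DMSO value. The lower calls were 4, 7, 2 and 4 in the order above. Of 41 DNA replication genes only 2 rose and 2 fell, and of 34 mitosis genes 3 rose and 2 fell, shares below the 22.9% of all genes. Within the latter, Ube2c, which encodes the ubiquitin-conjugating enzyme of the anaphase-promoting complex, fell from 153.94 and 166.64 to 115.97 and 133.61 (-0.36), and Pttg1, the gene of securin, rose from 31.46 and 31.37 to 38.39 and 43.18 (0.36). Of 24 cyclins, CDKs and inhibitors of G1, 6 rose and 2 fell, and the higher calls were 2, 4, 2 and 2 in the order above. The increases included the inhibitor genes Cdkn2d (17.23 and 17.01 against 22.46 and 22.02, 0.36) and Cdkn2a (0.24). Cdkn2a was not called with the length correction and without DMSO replicate 1 (limma adjusted p = 0.153, the highest of 20 alternatives).

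Of 26 p53 targets 7 rose and 3 fell, but without DMSO replicate 1, THZ1 replicate 1 or THZ1 replicate 2 the higher calls were 1, 0 and 1. Within this list only the decrease of the kinase gene Plk2, from 148.39 and 146.32 to 111.66 and 119.94 FPKM (-0.35), was stable. Fdxr, whose stable increase is given above, was not on the list. Of 15 BCL2 family genes 3 rose and 0 fell, and none of these calls held without DMSO replicate 1 or without THZ1 replicate 1.

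RNA processing genes changed in opposite directions. Of 24 SR proteins and their CLK kinases, 7 rose and 5 fell (median 0.07). The splicing factor genes Srsf3 and Srsf1 fell, the first from 151.14 and 143.93 to 120.94 and 115.07 FPKM (-0.32) and the second from 94.57 and 89.29 to 75.08 and 77.68 (-0.26). The kinase genes Clk1 (0.23), Clk3 (0.25) and Clk4 (0.23) rose, and so did Luc7l3 (0.24), which was the stable increase of the list. The calls higher and lower were 5 and 2, 5 and 5, 2 and 2, and 2 and 3 in the order above. Of 21 genes of 3′ end processing 2 rose and 4 fell, and Cstf3, a cleavage stimulation factor subunit, was the stable one (28.04 and 26.44 against 20.88 and 20.47 FPKM, -0.38). Of 29 mRNA decay genes 2 rose and 3 fell. Tob1, which recruits the CCR4-NOT deadenylase, rose from 28.55 and 29.53 to 38.08 and 37.67 (0.37), and Pan2, a deadenylase subunit, fell from 11.94 and 11.28 to 8.35 and 8.29 (-0.44).

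Of 62 translation factors 8 rose and 9 fell (12.9% and 14.5%), shares near the 12.4% and 10.5% of all genes. The higher calls were 2, 8, 1 and 2 and the lower calls 6, 6, 4 and 4 in the order above. The 4 stable members fell. These were Eef2kmt (-0.50), Eif5 (-0.28), Eif3a (-0.27) and the helicase gene Eif4a2 (-0.23). Of 45 ribosome biogenesis genes 2 rose and 7 fell (median -0.07), a count of lower calls that was 1, 5, 3 and 3 in the order above. The nucleolar helicase gene Ddx21 was its stable member, with 56.93 and 55.32 FPKM against 46.35 and 46.77 (-0.26). Of 20 aminoacyl-tRNA synthetases 3 rose and 1 fell, and the higher calls were 0, 2, 0 and 0 in the order above.

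Subunits of the respiratory chain, the ribosome and the proteasome that were called were mostly higher under THZ1, and many were not called. Of 37 complex I genes 24 rose and 0 fell (median 0.18), of 27 genes of complexes II to IV 12 rose and 0 fell (0.13), and of 18 ATP synthase genes 11 rose and 0 fell (0.18). Cytosolic ribosomal protein genes gave 18 higher and 0 lower of 79 (0.11), mitochondrial ribosomal protein genes 18 and 3 of 78 (0.07), and proteasome genes 12 and 0 of 37 (0.10). In this order of lists the shares called higher were 64.9%, 44.4%, 61.1%, 22.8%, 23.1% and 32.4%, against 12.4% of all genes. These lists have short mRNAs, with median lengths of 971, 821, 823.5, 887, 1302 and 1581 nt against 3135 nt over all genes. They therefore share the length gradient described above. Of all genes in the shortest decile of mRNA length (371 to 1308 nt) 27.9% were called higher, and 20.8% in the next (1308 to 1800 nt). The shares of the cytosolic and mitochondrial ribosomal lists were below that of the shortest decile. With the correction for mRNA length the higher calls were 10, 1, 3, 0, 7 and 3 in the same order of lists, and without DMSO replicate 1 they were 11, 4, 5, 8, 4 and 3. Without THZ1 replicate 1 they were 12, 1, 2, 3, 3 and 2. The part of mRNA length in these counts was not tested further.

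The stable members of these lists were 8 of complex I, 1 of complexes II to IV, 1 of ATP synthase, 4 mitochondrial ribosomal proteins of which 1 fell, and no cytosolic ribosomal protein or proteasome gene. Ndufb6 had 59.05 and 60.84 FPKM under DMSO and 79.87 and 73.98 under THZ1 (0.35 ± 0.05 SE), and Ndufb8 had 221.33 and 229.29 against 282.41 and 273.30 (0.30 ± 0.04). Both encode accessory subunits of complex I, and their THZ1 values were above both DMSO values. Mrps24 rose from 30.57 and 32.26 to 43.89 and 41.99 (0.44 ± 0.05). Mrps2, another small-subunit protein gene of the mitochondrial ribosome, fell from 23.38 and 24.47 to 17.78 and 16.40 (-0.46).

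**Figure D4:**
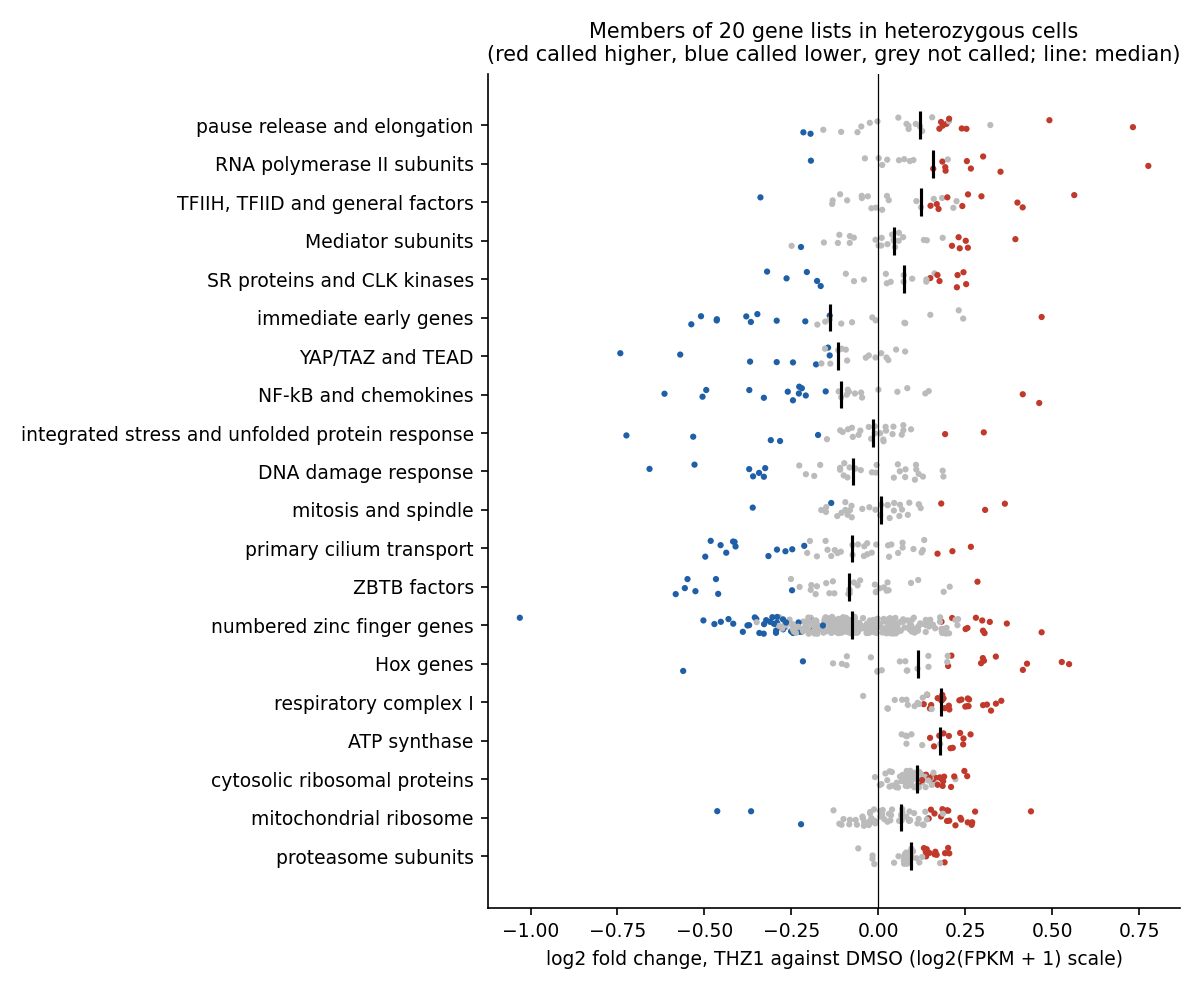
Log2 fold change of THZ1 against DMSO in heterozygous cells for the tested members of 20 gene lists, 1 point per gene, with the list's median as a black line. Red points were called higher, blue points lower and grey points were not called. Immediate early, YAP/TAZ and NF-kB genes have medians of -0.14, -0.12 and -0.11, and RNA polymerase II and complex I genes of 0.16 and 0.18.

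Other branches of metabolism also held more higher than lower calls. Of 23 glycolysis genes 10 rose (43.5%, against 12.4% of all genes) and 2 fell (median 0.14). Gpi1 rose from 134.93 and 138.86 to 162.92 and 160.97 FPKM (0.24) and Ldhb from 243.21 and 250.10 to 297.44 and 290.74 (0.25), while Hk2, the growth-regulated hexokinase, fell from 16.95 and 17.31 to 14.00 and 14.11 (-0.27). The higher calls were 6, 10, 3 and 6 in the order above. Of 28 TCA cycle genes 9 rose (32.1%) and 0 fell (0.11), with Pdhx (0.31) stable. Of 22 fatty acid oxidation genes 9 rose (40.9%) and 0 fell (0.12). Acaa2, the last enzyme of the mitochondrial spiral, rose from 26.97 and 27.85 to 36.14 and 35.88 (0.38 ± 0.05 SE, limma adjusted p = 0.000335), with Acadvl (0.29) and Hadhb (0.26). In these 2 lists the higher calls were 3, 7, 4 and 5, and 3, 10, 4 and 4. Of 24 cholesterol synthesis genes 3 rose and 1 fell, and none of the calls was stable. Of 29 lysosome genes 9 rose and 1 fell (0.13), and without THZ1 replicate 1 only 1 rose. Of 21 HIF factors and targets 7 rose and 1 fell (0.08), and 2 of the increases were stable.

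Zinc finger genes were called lower more often than higher. Of 305 numbered Zfp genes 11 rose (3.61%, against 12.4% of all genes) and 37 fell (12.1%, against 10.5%), with a median of -0.08. The lower share was thus near that of all genes, and the higher share was below that of all genes. All genes at a mean of 1 to 4 FPKM had a similar split, 3.77% higher and 11.8% lower. The part of level in the Zfp counts was not tested. Only Zfp397 (-0.45) and Zfp113 (-0.43) were stable. Lower calls in this family were 14, 26, 7 and 9 in the order above. Of 37 ZBTB genes, which encode zinc finger repressors with a BTB domain, 7 fell (18.9%) and 1 rose (-0.08). Of the decreases, 6 were stable. Zbtb38, a reader of methylated DNA, fell from 8.91 and 8.17 to 5.14 and 5.60 FPKM (-0.58), Zbtb4 from 8.73 and 8.20 to 5.32 and 5.62 (-0.55), Zbtb12 from 10.57 and 11.17 to 6.79 and 7.72 (-0.53) and Zbtb21 from 4.21 and 4.25 to 2.86 and 2.71 (-0.47). Lower calls were 7, 7, 6 and 7 without each library. The numbers of ZBTB decreases thus held where those of the Zfp family did not.

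Hox genes, which set the position of a tissue along the body axis, were called higher more often than lower. Of 29, 10 rose (34.5%, against 12.4% of all genes), 2 fell and 17 were not called (median 0.11). Hoxc10 rose from 24.00 and 26.27 to 36.38 and 36.90 FPKM (0.53 ± 0.05 SE, limma adjusted p = 6.6e-05). Hoxb13 rose from 8.10 and 8.54 to 13.32 and 11.97 (0.55), Hoxd10 from 17.55 and 19.11 to 25.28 and 24.68 (0.43) and Hoxb7 from 38.31 and 43.68 to 53.47 and 56.38 (0.42). In each the THZ1 values were above every DMSO value. The decreases were in Hoxd3 (-0.56) and Hoxd8 (-0.22). Hoxd10 overlaps the annotation of Hoxd11. Higher calls were 5, 9, 7 and 6 in the order above. Among 18 kidney lineage factors 3 rose and 2 fell, and Eya2, a transcriptional coactivator of organ development, was the stable one (13.22 and 12.07 against 9.56 and 8.09 FPKM, -0.48). Of 16 ERK feedback genes and ETS factors 1 rose and 2 fell, of 20 circadian clock genes 2 rose and 2 fell, of 10 Krüppel-like factors only Klf6 was called, and of 18 histone genes above the limit 4 rose and 1 fell.

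Genes of epithelial structure and transport gave scattered decreases. Of 21 keratins, junction and epithelial genes 4 fell and 1 rose. The tight junction genes Cldn1 (44.60 and 43.70 against 31.94 and 31.64 FPKM, -0.46 ± 0.05 SE) and Cldn4 (59.87 and 67.91 against 46.01 and 47.07, -0.45) fell, and F11r, the gene of junctional adhesion molecule A, rose (0.24). Summed kidney epithelial markers were 1322 to 1435 FPKM under DMSO and 1387 to 1428 under THZ1, and these ranges overlapped. Of 43 genes of primary cilium transport 12 fell (27.9%, against 10.5% of all genes) and 3 rose (median -0.07). Bbs1, a BBSome subunit, fell from 10.33 and 9.98 to 6.94 and 6.86 (-0.50), and the intraflagellar transport genes Ift122 and Ift81 by -0.48 and -0.41. Tmem231, of the ciliary transition zone, fell by -0.42. The lower calls were 5, 9, 6 and 8 in the order above, and higher calls were 0, 2, 0 and 0.

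Of 175 solute carrier genes tested 25 rose and 20 fell (14.3% and 11.4%), shares near the 12.4% and 10.5% of all genes, and another 187 were below the level limit. Of the stable members 3 rose and 11 fell. Slc9a8, a sodium-proton exchanger, fell from 11.37 and 11.35 to 7.16 and 7.42 FPKM (-0.58), the acetyl-CoA carrier Slc33a1 from 29.21 and 27.66 to 20.61 and 21.00 (-0.43) and the zinc carrier Slc39a13 from 28.82 and 31.51 to 22.19 and 21.84 (-0.44). Without THZ1 replicate 1 only 5 rose and 13 fell. Of 7 potassium channel genes above the limit 3 fell and 0 rose, led by Kcnj16. Of 31 TGF-β pathway genes 3 rose and 4 fell (9.68% and 12.9%), and the higher calls were 0, 3, 0 and 0 in the order above. There was a stable decrease of the receptor gene Tgfbr2 (98.05 and 98.58 against 82.06 and 83.74, -0.24). Of 29 interferon response and MHC genes, read in cells kept in interferon-γ, 5 rose and 2 fell (17.2% and 6.90%), and the higher calls were 1, 4, 2 and 1 in the order above. Cd74, the invariant chain of MHC class II, rose from 29.09 and 31.40 to 37.29 and 37.07 (0.29), and Nlrc5, an activator of MHC class I, fell from 6.14 and 5.63 to 4.15 and 3.99 (-0.44). Cd74 was not called with the length correction and without DMSO replicate 1 (limma adjusted p = 0.0585, the highest of 20 alternatives).

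Genes without introns were called lower more often than genes with introns. Of 194 members with 1 exon 49 fell (25.3%) and 10 rose, and of 10442 members with more exons 10.2% fell. Their median log2 fold changes were -0.09 and 0.01. Jun and Cldn4 are among the intronless genes that fell, and Hexim1, also without introns, rose. The median mRNA length of the 2 classes was 2490.5 and 3151 nt. The lower share of intronless genes was 31.4% with the length correction, 21.6% without DMSO replicate 1, 16.5% without DMSO replicate 2, 10.8% without THZ1 replicate 1 and 15.5% without THZ1 replicate 2. In those same settings genes with more exons had 10.7%, 5.18%, 8.24%, 3.82% and 4.64%. The difference was not tested.

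The null line was used to ask which parts of the response differ between the lines. Its response to the same treatment was larger. The absolute log2 fold change had a median of 0.34, against 0.11 in heterozygous cells, and 8091 genes (75.7%) were called. The test of the difference between the responses called 6423 of 10685 genes (60.1%). Of these, 1603 were more positive in null cells and 4820 more negative, but the split was 3502 and 3058 after median-of-ratios scaling and 2347 and 3216 after upper-quartile scaling. The 2 lines share no library, and across genes their log2 fold changes had Pearson's r = 0.60 over 10685 genes that are not independent.

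Of the 1325 genes called higher in heterozygous cells, 901 (68.0%) were also called higher in null cells, 140 were called lower and 284 were not called. Of the 1118 called lower, 984 (88.0%) were also called lower in null cells, 40 were called higher and 94 were not called. Among the genes called lower, the difference between the lines was called for 863, and for 777 of these the change was larger in null cells. Among those called higher it was called for 725, and for 428 the increase was larger in null cells. Both counts of larger changes in null cells depended on scaling. The 428 became 790 after median-of-ratios scaling, 592 by upper quartiles and 375 by library totals. In the same order the 777 became 612, 630 and 796. Krcc1 fell to 6.94 and 5.79 FPKM in null cells (log2 -2.32), Kcnj16 fell by -2.60 and Chac1 by -3.45, against -0.97, -0.88 and -0.72 in heterozygous cells. Polr2a rose by 1.31 in null and 0.78 in heterozygous cells.

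The called difference lay on the heterozygous side, by a larger or an opposite change, for 297 genes called higher and 86 called lower. These 383 genes became 287 after median-of-ratios scaling, 239 by upper quartiles and 399 by library totals. As deposited, 43 and 11 of them changed in the same direction in null cells, whether or not the null change was called. At a mean of at least 4 FPKM over the 8 libraries, the 5 named by the size of their change in heterozygous cells were H2ac13, Hexim1, Pik3r3, Hacd1 and Tmem120b. Nrtn (0.64, and 0.16 in null cells) and Hhex (0.61, and 0.28) were under that level. Pik3r3 rose from 10.32 and 9.82 to 15.91 and 15.11 FPKM in heterozygous cells and had 14.39 and 14.63 against 14.54 and 15.11 in null cells. The THZ1 level of heterozygous cells thus reached the level that null cells had under either treatment, and the difference of the log2 changes was -0.55 ± 0.08 (SE; limma adjusted p = 0.000103). Hacd1 rose by 0.56 and had 0.12 in null cells, where its level was far higher throughout (16.70 to 19.30 FPKM against 3.01 to 5.01). Hexim1 rose to 28.19 and 27.99 FPKM against 22.65 and 21.45 in null cells. Its difference was at the limit (-0.20, limma adjusted p = 0.0491) and passed in 5 of 19 alternatives (0.0141 to 0.792). That of Tmem120b (-0.31, limma adjusted p = 0.0391) passed in 8 of 19 (0.0121 to 0.868), and that of H2ac13 (-1.93, limma adjusted p = 0.0317) in 12 of 19 (7.03e-06 to 0.161).

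Opposite calls in the 2 lines were found for 180 genes, and the 5 that the rule named included 2 chemokines. Ccl2 fell by -0.51 in heterozygous cells and rose by 0.92 in null cells, from 52.64 and 44.24 to 99.89 and 84.93 FPKM, and the difference was 1.42 (limma adjusted p = 1e-06). The neutrophil chemokine gene Cxcl1 had -0.25 and 0.90, and Icosl, the gene of a costimulatory ligand, 0.30 and -0.91. The others named by the rule were Tmem216 (0.27 and -0.94), which acts at the ciliary transition zone, and Sac3d1 (0.25 and -0.93). The heterozygous side of 4 of these 5 was fragile, while Ccl2 was called in all 20 alternatives. The heterozygous call of Cxcl1 held in 15 of 20 alternatives (limma adjusted p = 0.00205 to 0.151), that of Icosl in 19 of 20 (0.00544 to 0.0652), and those of Tmem216 and Sac3d1 in 12 of 20 each (0.0085 to 0.154 and 0.00941 to 0.376). Egr1 and Lif, which fell in heterozygous cells, rose by 0.20 and 0.18 in null cells. Hoxb13, which rose by 0.55, had -0.17 in null cells, where it was at 1.26 to 1.61 FPKM.

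**Figure D5:**
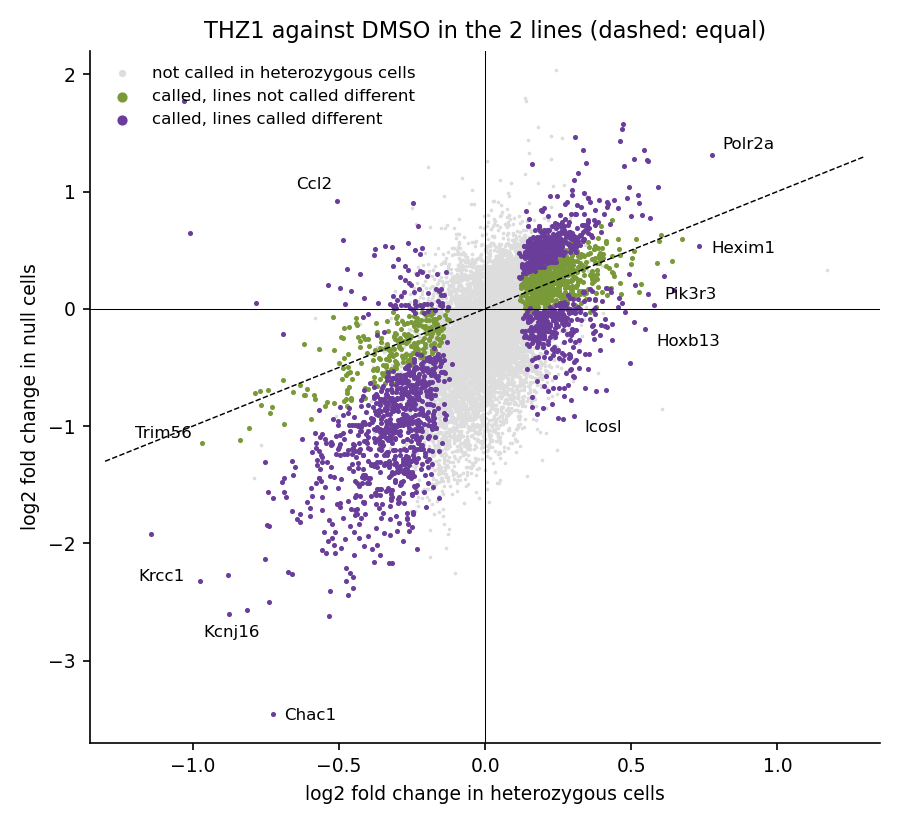
Log2 fold change of THZ1 against DMSO in null cells against that in heterozygous cells, 1 point per gene, both on the log2(FPKM + 1) scale, with equal changes on the dashed line (3 genes lie outside the axes). Purple points were called in heterozygous cells and differ between the lines by limma's test, and green points were called without such a difference. Kcnj16 and Chac1 lie far below the dashed line and Ccl2 lies in the upper left.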

How the data were processed

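Poly(A) RNA of 8 libraries in 4 groups of 2 was measured. Groups and replicate numbers came from the labels. Bowtie2, DESeq2 and build mm10 are named in the submitters' processing notes, without versions. For the program behind the FPKM values, its annotation and its strand setting, nothing is given in the sources used here. The authors deposited 1 FPKM value per gene and library, for 18631 Entrez gene IDs, of which 18592 had a symbol in the RefSeq table of GRCm38.p6. FPKM is not a count, so limma 3.58.1 in R 4.3.3 fitted log2(FPKM + 1) of all 8 libraries, with 1 mean per group, a prior spread that follows the mean and 4 residual degrees of freedom. Two-sided p-values were adjusted over 10685 genes by Benjamini-Hochberg. The fit was tested on simulated data. Promoters came from RefSeq (8664 members matched) and mRNA lengths from GENCODE M21, as the longest basic protein-coding transcript (10636 members matched).

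The members, 49 gene lists and 8 marker lists were chosen with earlier results of these data known. Named genes are 10 fixed ones, the 12 largest changes each way at a mean of at least 4 FPKM, the 5 largest each way at 1 to 4 FPKM, up to 4 members of each list by adjusted p, and 5 genes each for larger and for opposite responses. Predicted genes, Rik clones and pseudogenes were passed over. The list members shown with values were, of those, mainly the ones called in all 8 harder settings, a choice made after the values were seen; so were Hoxd3, Hoxd8, Zfp36, Supt5, Nelfcd and the CLK genes. Alternatives were other scalings, pseudocounts and filters, no trend, 4 libraries only, a replicate block, leaving out each library, and, chosen after seeing the data, the mRNA length correction and leaving out null libraries.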

Additional observations from a re-analysis of the deposited data

Results flagged for a closer look

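By limma's test of the difference (adjusted p below 0.05), the THZ1 responses of the null and heterozygous lines differed for 6423 of 10685 genes (60.1%). Of the 48 genes named by the rule outside the lists, 35 differed. That count is partly fixed by the choice, since Ccl2, Cxcl1, Icosl, Tmem216, Sac3d1 and Tmem120b were named only from genes with a called difference. The values below are the log2 fold change in null cells minus that in heterozygous cells. The change was more positive in null cells for Zfp973 (2.80), Cep295nl (1.90), Ccl2 (1.42), Cxcl1 (1.15), Polr2a (0.54), Baiap2 (0.45), Cdk13 (0.32), Rnf19b (0.26), Myc (0.25) and Taf13 (0.21). It was more negative in null cells for H2ac13 (-1.93), Rin1 (-1.77), Ccdc9b (-1.75), Kcnj16 (-1.73), Ankrd49 (-1.38), Rfx5 (-1.38), Krcc1 (-1.34), Icosl (-1.22), Tmem216 (-1.21), Sac3d1 (-1.18), Krt80 (-1.11), Nudt18 (-1.09), Ankrd1 (-0.82), Slc13a2 (-0.78), Hoxb13 (-0.72), Pik3r3 (-0.55), Nrtn (-0.48), Hacd1 (-0.43), Mnat1 (-0.42), Cdk7 (-0.41), Hhex (-0.33), Tmem120b (-0.31), Ccnh (-0.28), Pkd2 (-0.24) and Hexim1 (-0.20). The THZ1 target Cdk7 and its partners Ccnh and Mnat1 are in this group through decreases in null cells of -0.52, -0.31 and -0.48, with no call in heterozygous cells. Some of these calls were lost under alternatives. The difference was called in 15 of 19 alternatives for Cdk7 and Mnat1, with limma adjusted p up to 0.354 and 0.166, and in 11 of 19 for Ccnh (up to 0.952). It was called in 15 of 19 for Pkd2 (up to 0.982) and Rnf19b (up to 0.0896), 11 of 19 for Taf13 (up to 0.175), 12 of 19 for H2ac13 (up to 0.161), 8 of 19 for Tmem120b (up to 0.868) and 5 of 19 for Hexim1 (up to 0.792). Of 18 alternatives it was called in 17 for Nrtn (up to 0.0519), 16 for Hacd1 (up to 0.0887) and 4 for Hhex (up to 0.777). The difference of each other gene listed here was called in every alternative that gave a value for it.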

How the results depend on the processing

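The count of 2443 called genes became 1334 with upper-quartile scaling and 836 to 2581 without 1 library. The 1325 higher calls became 438 with upper-quartile scaling, 766 with library total scaling, 835 with no filter on low values and 413 to 1377 without 1 library, and the 1118 lower calls 423 to 1204 without 1 library. With the mRNA length correction and without DMSO replicate 1 there were 1060 calls, 426 higher and 634 lower. The interaction count of 6423 stayed between 5499 and 6595, but its 1603 more positive and 4820 more negative genes became 3502 and 3058 with median-of-ratios scaling, 3380 and 3040 with the length correction, and 3103 and 2795 with the length correction and without DMSO replicate 1. Its more positive and more negative counts without 1 library were 1285 to 1517 and 4359 to 4768. Ccnh, not called in any of these fits, changed sign without DMSO replicate 2 (0.032) and without THZ1 replicate 1 (0.0012), and its log2 fold change ran from -0.085 to 0.032 without 1 library. For all of these the cause was not tested. Of 220 called genes that the rule named, 175 kept their call with upper-quartile scaling, 155 without THZ1 replicate 1, 174 without DMSO replicate 1 and 146 with the length correction and without DMSO replicate 1, and none reversed. The labels do not state whether replicate numbers pair the libraries, and the main fit did not pair them. Deviations of same-numbered libraries correlated at 0.134 (heterozygous) and 0.0372 (null), which cannot settle it. With the replicate block 2729 genes were called, 1529 higher and 1200 lower. The values have no read counts, so what depth limits could not be measured, and 2 libraries a group limit the precision.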
